A study of Mus musculus with 6 samples.

Results

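The Ifitm family is described here in LSK cells of mouse bone marrow through its 5 listed members, Ifitm1, Ifitm2, Ifitm3, Ifitm6 and Ifitm10, out of 23420 genes in the count table. The members were taken by symbol, and all 5 had a row. Of these, 4 were among the 12653 genes with enough counts to be tested, and Ifitm10 was not. LSK cells are marrow cells without mature lineage antigens that carry Sca-1 and c-Kit, and blood stem cells and early progenitors are found among them. RNA from the LSK cells of 6 mice was sequenced, 1 library per mouse. The 3 bcat(ex3)osb mice (called mutant mice) had β-catenin signalling that was constitutively active in osteoblasts, which build bone and line the marrow space, and the 3 WT mice were littermates. No treatment is named for either group, and neither the promoter that restricts the change to osteoblasts nor the age of the mice is given in the sources used here. The altered signalling is described for osteoblasts, not for the sorted blood cells. Total counts lay between 17191996 and 18678599 in mutant libraries and between 15431235 and 19956774 in WT libraries. The library of mutant mouse 2 stood apart on the first principal component (50.8% of the variance), and values without it are given below where they differ.

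IFITM proteins are small membrane proteins that interferons induce, and they block the fusion of enveloped viruses with the membranes of the cell. Ifitm3 works mainly in endosomes and lysosomes, whereas human IFITM1 sits mostly at the cell surface. In human stem cells of several tissues some interferon genes, IFITM genes among them, are also made without infection. In the mouse Ifitm3 is known too as fragilis, an early marker of germ cell precursors. Ifitm5, a relative outside the 5 members, is made by osteoblasts.

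The members lie on chromosome 7, and all are protein-coding genes. In the RefSeq table for GRCm38.p6 (mm10) Ifitm2 spans 140954837 to 140959686, Ifitm1 140967429 to 140969827, Ifitm3 141009590 to 141010744 and Ifitm6 141015812 to 141016892. The gap between Ifitm1 and Ifitm3 is 39.8 kb, and Ifitm1 is read from the plus strand while the other 4 members are read from the minus strand. Ifitm10 lies 1309 kb beyond Ifitm6, from 142325835 to 142373779. In the GENCODE M21 annotation Ifitm2 overlaps Gm45717, a longer gene model on the same strand, and Ifitm10 overlaps Gm49369, whereas Ifitm1, Ifitm3 and Ifitm6 overlap no other gene. The annotation behind the counts is not stated, and the deposited table has no row for Gm45717.

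The 3 abundant members have similar coding sequences but share few long identical stretches. Over aligned coding bases, Ifitm1 and Ifitm3 matched at 80.0%, Ifitm2 and Ifitm3 at 79.7%, and Ifitm1 and Ifitm2 at 78.0%. The longest identical stretch was 69 bases between the transcripts of Ifitm2 and Ifitm3, 64 between Ifitm1 and Ifitm3, and 40 between Ifitm1 and Ifitm2. No stretch of 75 bases was shared by any pair. Ifitm6 matched Ifitm1, Ifitm2 and Ifitm3 at 65.2%, 62.7% and 62.8%. How reads that map to several places were counted is not stated.

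The promoters of the 3 abundant members are shown because the mean levels of their transcripts lay in opposite directions between genotypes. They are the RefSeq windows on GRCm38.p6, from 250 bases before to 50 bases after a transcript start, 5′ to 3′ on the strand of the gene: chr7:140967826-140968125 (plus) for Ifitm1, chr7:140955912-140956211 (minus) for Ifitm2 and chr7:141010695-141010994 (minus) for Ifitm3. Capitals mark matches to GAAA and GAAA set 2 bases apart, the core of the interferon-stimulated response element, which interferon-activated STAT and IRF proteins bind.
Ifitm1: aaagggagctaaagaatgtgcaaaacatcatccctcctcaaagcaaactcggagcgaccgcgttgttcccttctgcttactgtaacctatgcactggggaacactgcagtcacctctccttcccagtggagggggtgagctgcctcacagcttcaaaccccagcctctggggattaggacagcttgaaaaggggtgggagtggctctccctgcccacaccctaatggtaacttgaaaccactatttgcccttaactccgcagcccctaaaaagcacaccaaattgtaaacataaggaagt
Ifitm2: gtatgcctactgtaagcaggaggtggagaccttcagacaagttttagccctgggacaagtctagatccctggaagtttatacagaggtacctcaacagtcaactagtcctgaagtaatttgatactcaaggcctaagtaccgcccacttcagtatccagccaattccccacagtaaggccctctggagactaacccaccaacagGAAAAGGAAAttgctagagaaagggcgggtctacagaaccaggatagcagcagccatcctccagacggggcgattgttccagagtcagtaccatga
Ifitm3: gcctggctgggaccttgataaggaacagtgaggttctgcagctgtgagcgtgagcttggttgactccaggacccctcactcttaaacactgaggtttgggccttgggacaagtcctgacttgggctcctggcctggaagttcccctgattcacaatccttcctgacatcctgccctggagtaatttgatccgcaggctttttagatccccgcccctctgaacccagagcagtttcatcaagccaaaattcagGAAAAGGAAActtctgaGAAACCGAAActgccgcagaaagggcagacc

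The window of Ifitm3 held 2 matches to this core, that of Ifitm2 held 1 and that of Ifitm1 held 0, searched on both strands. The matches in Ifitm3 begin 2 and 19 bases after the start, and the match in Ifitm2 begins 46 bases before it. The windows of Ifitm6 and Ifitm10 held 0. Of all 32851 promoter windows in the table, 3.44% held at least 1 match and 0.23% held at least 2. Among 35 type I interferon-stimulated antiviral genes with a window, 17 held a match, and among 10 interferon-induced GTPase genes 9 did. Ifitm1 and Ifitm2 have other annotated starts that the windows do not cover, as their RefSeq spans reach further upstream. The GENCODE span of Ifitm6, which ends at 141017924, also reaches upstream of its window. A match is a string of letters, and no binding was measured.

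Ifitm1, Ifitm2 and Ifitm3 were among the most abundant transcripts of LSK cells. In FPKM, which is per base of gene length and so allows genes to be compared, Ifitm2 ranked 27, Ifitm1 53 and Ifitm3 135 by the mean of the mutant mice, out of 12653 tested genes. In WT mice Ifitm2 ranked 41, Ifitm3 48 and Ifitm1 82. The FPKM level of Ifitm2 averaged 1104 ± 449 in mutant and 805 ± 268 in WT mice (SD, n = 3 each). That of Ifitm1 averaged 831 ± 325 FPKM in mutant and 574 ± 139 FPKM in WT mice, and that of Ifitm3 478 ± 40.4 FPKM in mutant and 725 ± 180 FPKM in WT mice. In each mutant mouse the order of levels was Ifitm2, Ifitm1, Ifitm3, and in each WT mouse it was Ifitm2, Ifitm3, Ifitm1. The means of neighbours in these orders differ by less than the larger of their SDs, with the exception of Ifitm1 and Ifitm3 in mutant mice. Together the 3 genes took 0.137%, 0.236% and 0.137% of counts for mutant mice 1, 2 and 3, against 0.114%, 0.191% and 0.133% for WT mice 1, 2 and 3. Ifitm6 followed far below at 4.80 ± 0.94 FPKM in mutant and 2.82 ± 0.92 FPKM in WT mice, and Ifitm10 was at most 0.08 FPKM in any library.

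Between genotypes the means of the 3 abundant members lay in opposite directions: Ifitm3 had lower mean levels in mutant mice, and Ifitm1 and Ifitm2 had higher ones, but none passed the test over all genes. Levels between mice are given as CPM, counts scaled by TMM library sizes. In bulk RNA such as this, fewer cells of a type and less RNA per cell cannot be told apart. Ifitm3, the endosomal restriction factor, was at 283, 370 and 306 CPM for mutant mice 1, 2 and 3, against 355, 602 and 422 CPM for WT mice 1, 2 and 3. Mutant mouse 2 lay just above WT mouse 1, so the groups overlapped by that 1 pair, and the other mutant mice lay below all WT mice. The log2 fold change (mutant over WT) of Ifitm3 was -0.52 ± 0.24 (SE), with an unadjusted p of 0.0608 and an adjusted p of 0.774 by edgeR's quasi-likelihood test.

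Ifitm1, the shortest of the 3 in coding length, was at 583, 1121 and 492 CPM for mutant mice 1, 2 and 3, against 363, 613 and 440 CPM for WT mice 1, 2 and 3. WT mouse 2 lay above mutant mice 1 and 3, so the groups overlapped. The log2 fold change of Ifitm1 was 0.63 ± 0.35 (SE), with an edgeR adjusted p of 0.813. Ifitm2, the closest neighbour of Ifitm1 in the cluster, was at 513, 1127 and 537 CPM for mutant mice 1, 2 and 3, against 361, 698 and 425 CPM for WT mice 1, 2 and 3. WT mouse 2 again lay above mutant mice 1 and 3. The log2 fold change of Ifitm2 was 0.55 ± 0.37 (SE), with an edgeR adjusted p of 0.868.

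**Figure D1:**
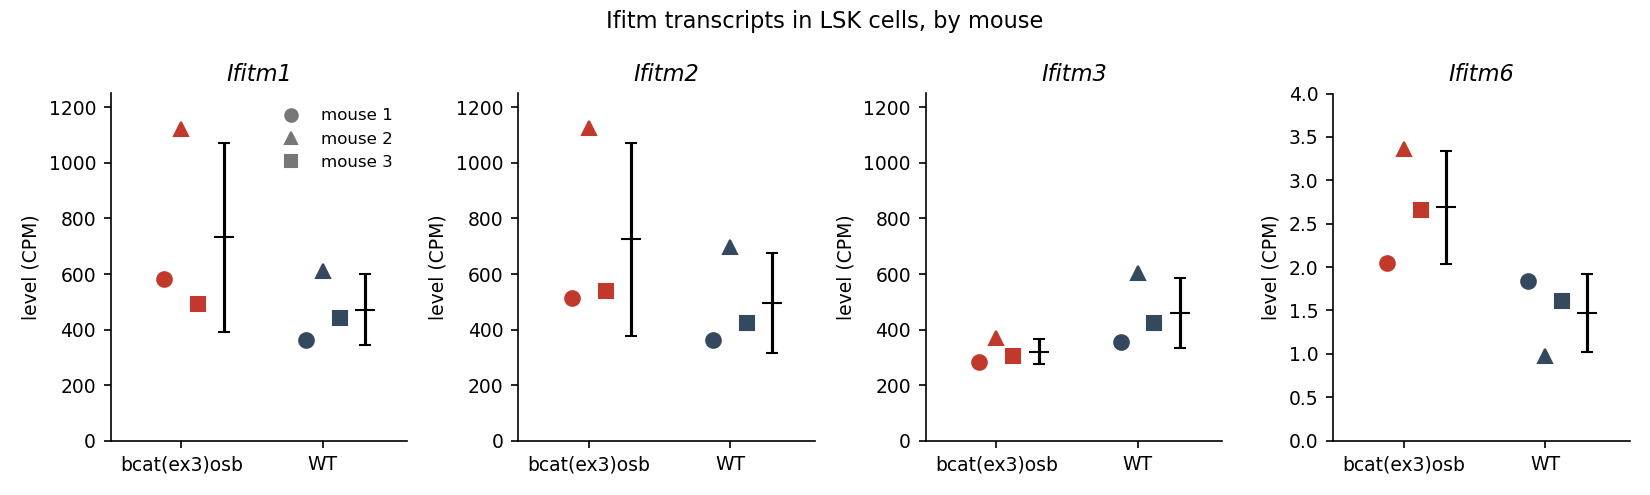
Levels of Ifitm1, Ifitm2, Ifitm3 and Ifitm6 in CPM for each bcat(ex3)osb and WT mouse (points; shape gives the mouse number), with the mean and SD of each group beside the points (n = 3 each). Mouse 2 is highest in its group for Ifitm1, Ifitm2 and Ifitm3, and of the 4 genes Ifitm6 alone separates without overlap.

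At an adjusted p under 0.05 this test called 0 of the 12653 genes in either direction (0%). At an unadjusted p under 0.05 edgeR gave 434 higher (3.43%) and 396 lower (3.13%), and none of the Ifitm members was among them. DESeq2 called 101 higher (0.799% of 12638 genes with an adjusted p) and 68 lower (0.538%), again without an Ifitm member. Leaving out mutant mouse 2 gave log2 fold changes of 0.19 for Ifitm1, 0.09 for Ifitm2 and -0.64 for Ifitm3, and leaving out WT mouse 2 gave 0.86, 0.88 and -0.28. By Xist and Y-linked counts 2 of the 3 mutant mice, mice 1 and 2, were male and the other 4 mice female, and in the 4 female mice the values were 0.04, 0.10 and -0.60.

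The libraries of mouse 2 of each genotype held more counts from short genes, and all 3 abundant Ifitm genes are short, at 840, 627 and 648 bases in the deposited length column for Ifitm1, Ifitm2 and Ifitm3. The median over the 842 tested genes of 500 to 1000 bases, in log2 CPM less the mean of the WT mice, was -0.0041, 0.77 and -0.12 for mutant mice 1, 2 and 3, and -0.41, 0.56 and -0.15 for WT mice 1, 2 and 3. Genes under 1000 bases took 14.3% of the counts of mutant mouse 2 and 12.4% of those of WT mouse 2, against 6.37% to 8.66% in the other 4 libraries. In WT mice the 3 Ifitm genes ran close to this median: Ifitm3 was at -0.34, 0.42 and -0.09 on the same scale. In mutant mice 1, 2 and 3, however, Ifitm3 was at -0.66, -0.28 and -0.55.

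Set against the median of these genes of like length, the 3 Ifitm genes separated by genotype, in opposite directions. Relative to that median Ifitm3 was at -0.66, -1.05 and -0.43 log2 units for mutant mice 1, 2 and 3, against 0.07, -0.13 and 0.06 for WT mice, so that the groups did not overlap. Ifitm1 was at 0.34, 0.51 and 0.22 in mutant and at 0.06, -0.14 and 0.08 in WT mice. Ifitm2 was at 0.12, 0.48 and 0.30 in mutant and at 0.01, 0.0011 and -0.01 in WT mice. For both of these the mutant values were the higher ones and did not overlap the WT values. The differences were -0.71, 0.36 and 0.30 log2 units for Ifitm3, Ifitm1 and Ifitm2, each with an exact two-sided permutation p of 0.1, the smallest that 3 against 3 mice can give. Of the 842 genes treated in this way, 8.79% lay above and 12.4% below without overlap. This comparison was chosen after the values were seen. With the trend of each library with gene length removed in the edgeR fit, the log2 fold changes were -0.71 ± 0.19 for Ifitm3 (adjusted p = 0.279), 0.39 ± 0.13 for Ifitm1 (adjusted p = 0.357) and 0.27 ± 0.12 for Ifitm2 (adjusted p = 0.472).

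**Figure D2:**
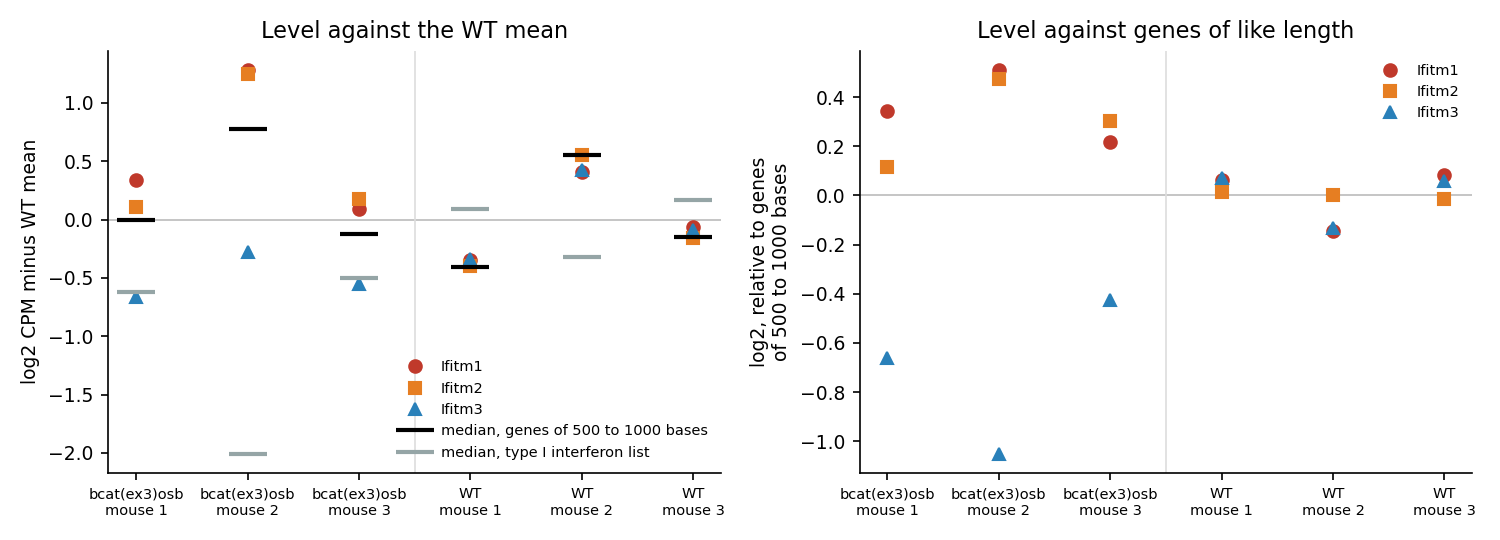
Left, log2 CPM of Ifitm1, Ifitm2 and Ifitm3 minus the WT mean in each mouse, with the median of tested genes of 500 to 1000 bases (black bars) and of the type I interferon list (grey bars). Right, the same 3 genes against the median of the genes of like length. In the right panel Ifitm3 lies between -1.05 and -0.43 in the mutant mice, below its WT values, and Ifitm1 and Ifitm2 lie above theirs.

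The ratio of the members within a library does not depend on library scaling. In counts, Ifitm1 over Ifitm3 was 2.06 in mutant mouse 1 (95% Wilson interval 1.99 to 2.13), 3.03 in mutant mouse 2 (2.94 to 3.12) and 1.604 in mutant mouse 3 (1.55 to 1.66). In WT mice 1, 2 and 3 it was 1.02 (0.990 to 1.06), 1.02 (0.989 to 1.05) and 1.04 (1.01 to 1.07). The 3 WT mice thus agreed within counting error, and each mutant mouse lay above them. The intervals cover counting error only, and no molecular identifiers are described for these libraries. Ifitm2 over Ifitm3 in counts was 1.81, 3.05 and 1.75 for mutant mice 1, 2 and 3. Among the WT mice it was 1.16 (1.13 to 1.19) in mouse 2, outside the intervals of mouse 1 (0.984 to 1.05) and mouse 3 (0.978 to 1.04).

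Per length, Ifitm1 over Ifitm3 averaged 1.72 ± 0.56 in mutant and 0.793 ± 0.011 in WT mice (SD of the FPKM ratio, n = 3 each), a mean log2 difference of 1.07 (exact two-sided permutation p = 0.1, the smallest possible, and 0.15 after Benjamini-Hochberg adjustment over the 3 ratios). Ifitm2 over Ifitm3 was 1.87, 3.15 and 1.81 for mutant mice 1, 2 and 3, against 1.05, 1.20 and 1.04 for WT mice 1, 2 and 3. Its mean log2 difference was 1.01 (exact permutation p = 0.1, adjusted 0.15), again with no overlap. Ifitm1 over Ifitm2, by contrast, overlapped: 0.848, 0.742 and 0.683 in mutant and 0.751, 0.655 and 0.773 in WT mice, a log2 difference of 0.06 (exact permutation p = 0.7).

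Many other genes also lay higher against Ifitm3: of 12652 tested genes set over Ifitm3 in each library, 33.5% had all mutant values above all WT values. In size, 942 of them (7.45%) had a larger log2 difference than Ifitm1. In steadiness among the 3 WT mice, 31 genes (0.245%) kept a smaller SD of the log2 ratio to Ifitm3 than Ifitm1 did. That SD was 0.02 for Ifitm1, against 0.48 for the median gene, and the SD among the mutant mice was 0.46 for Ifitm1.

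**Figure D3:**
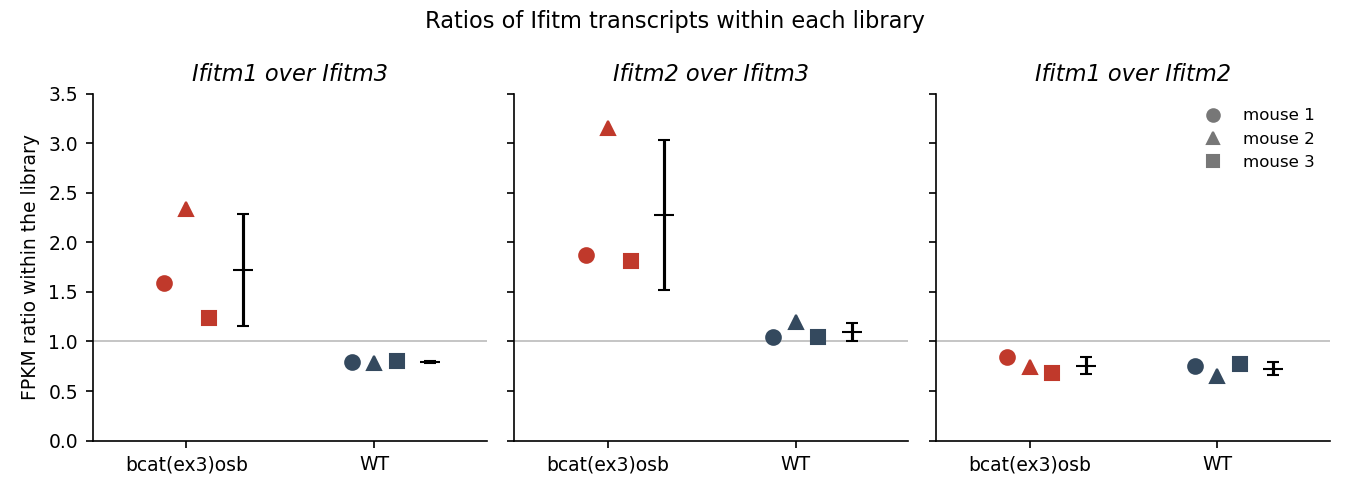
FPKM ratio of Ifitm1 over Ifitm3, Ifitm2 over Ifitm3 and Ifitm1 over Ifitm2 within each library (points; shape gives the mouse number), with the mean and SD per group (n = 3 each). The first pair of ratios lies above the WT values in every bcat(ex3)osb mouse, from 1.24 to 2.34 and from 1.81 to 3.15, and the third overlaps between genotypes.

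Across the 6 libraries the log2 CPM of Ifitm1 and Ifitm2 had a Pearson correlation of 0.97, that of Ifitm1 and Ifitm3 one of 0.08, and that of Ifitm2 and Ifitm3 one of 0.22. These describe 6 points that share the library differences above. Among 9148 genes with a mean of at least 10 CPM, the closest to Ifitm1 over the 6 libraries were Arl6ip4, Commd7, Rpl41, Leng1 and Tex261, with Pearson correlations of 0.998 to 0.999. The closest to Ifitm3 were Nup35, Rab24, Ppa1, Tmem29 and Mettl10, at 0.973 to 0.993. None of these 10 genes is in the interferon lists.

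Ifitm6, at the end of the cluster next to Ifitm3, was the 1 member whose CPM did not overlap between genotypes. It was at 2.05, 3.35 and 2.66 CPM for mutant mice 1, 2 and 3, against 1.84, 0.975 and 1.61 CPM for WT mice 1, 2 and 3, from 38, 52 and 48 counts in mutant and 38, 15 and 33 counts in WT libraries. The log2 fold change of Ifitm6 was 0.86 ± 0.53 (SE), with an edgeR adjusted p of 0.853. Over all tested genes 6.89% lay above without overlap and 7.67% below. Against genes of like length Ifitm6 overlapped between genotypes. Of 14 tested granulocyte-monocyte progenitor genes 12 had a positive log2 fold change, with a list median of 1.70 and a summed level of 7152 to 12170 CPM in mutant and 2079 to 4016 CPM in WT mice, and 0 passed over all genes. By mouse, in log2 units against the mean of the WT group, the list median was 1.89, 2.08 and 1.25 for the mutants and -0.67, 0.31 and 0.24 for WT, while Ifitm6 was at 0.50, 1.20 and 0.88 for the mutants and 0.36, -0.52 and 0.17 for WT. Both were higher in the mutant mice, so their shared side of 0 there does not show whether they vary together. Among WT mice they lay on the same side in mouse 3 and on opposite sides in mice 1 and 2. The part of these progenitors in the Ifitm6 values was not tested.

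Ifitm10, the most distant member by sequence and position, had 3, 0 and 1 counts for mutant mice 1, 2 and 3, against 0, 4 and 4 counts for WT mice, too few to compare. Other tested genes of the same protein superfamily, the dispanins, were at low levels, and Tmem91 was the highest of them. Ifitm5, which osteoblasts make, had 19, 19 and 12 counts in mutant and 14, 20 and 12 counts for WT mice, a log2 fold change of 0.19 ± 0.65 (SE). Of 9 listed osteoblast markers 3 were tested, namely Alpl, Runx2 and Ifitm5. Of these, 2 had a positive and 1 a negative log2 fold change, at a median of 0.19. Runx2, the most abundant of them, was at 113, 147 and 88.4 CPM in mutant and 74.8, 108 and 84.7 CPM in WT mice, with overlap (log2 fold change 0.38 ± 0.25). Alpl, the alkaline phosphatase of mineralising bone, had 89, 6 and 34 counts in the mutant libraries, against 345, 91 and 449 counts in the WT libraries, without overlap in CPM (log2 fold change -2.64 ± 0.83, unadjusted p of 0.0126 and adjusted p of 0.562 by edgeR). Of the markers under the filter, Ibsp had 0 counts in the mutant libraries, against 23, 0 and 0 in the WT libraries, Col1a1 6, 0 and 1 against 17, 3 and 12, Sp7 0, 0 and 0 against 2, 0 and 12, and Bglap 0, 5 and 1 against 1, 4 and 0. Their part in the Ifitm values was not tested. Ifitm7, a protein-coding gene on chromosome 16 whose coding bases match Ifitm1 at 89.3%, had 7, 29 and 27 counts in mutant and 8, 6 and 8 counts in WT mice and was below the filter. The longest stretch it shares with Ifitm1 is 38 bases. Tmem91 was at a mean of 7.12 ± 3.12 CPM in mutant mice, against 11.3 ± 3.69 CPM in WT mice. Its log2 fold change was -0.66 ± 0.42 (SE), with an edgeR adjusted p of 0.858. Prrt1 and Prrt2 were below 5 CPM in every library.

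Most other interferon-induced genes had lower values in mutant mice, on the side of Ifitm3 and not of Ifitm1 and Ifitm2. Of 48 listed type I interferon-stimulated antiviral genes 45 were tested, of which 43 had a negative log2 fold change (49.7% of all tested genes did) and 2 a positive one (50.3%). Their median was -0.98, against 0.0022 over all tested genes. None of the 45 passed over all genes. At an unadjusted p under 0.05 by edgeR 18 were lower (3.13% of all tested genes were) and 0 higher (3.43%). Without overlap 28 lay below WT (7.67% of all tested genes did). The log2 fold changes of Ifitm1 and Ifitm2 were above those of all 45, and 906 of the 12653 tested genes lay above Ifitm1. Ifitm3 was less reduced than most of the list, with 31 of 45 below it, as were 1538 of the 12653 tested genes. With the length trend removed Ifitm3 was at -0.71 and the list median at -0.93. The level of Oas1a, an enzyme that senses double-stranded RNA and so activates RNase L, was 27.9, 10.1 and 23.2 CPM for mutant mice 1, 2 and 3 against 44.6, 42.8 and 57.8 CPM for WT mice 1, 2 and 3. All mutant values of Oas1a lay below all WT values, with a log2 fold change of -1.25 ± 0.37 (SE). The log2 fold changes of Zbp1, a sensor of left-handed nucleic acids, Ifi27l2a, and Ifit3, a partner in the IFIT complex on viral RNA, were -1.55, -2.08 and -3.07.

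All 15 tested interferon-induced GTPase genes, which attack the vacuoles of intracellular microbes, lay below 0 in log2 fold change, at a median of -0.92. Over all tested genes 49.7% lay below 0. Of the 15 genes 7 lay below WT without overlap, as did 7.67% of all tested genes. The level of Tgtp1 was 17.8, 7.68 and 19.96 CPM for mutant mice 1, 2 and 3 against 44.3, 33.5 and 47.9 CPM for WT mice 1, 2 and 3, without overlap. Its log2 fold change was -1.47 ± 0.37 (SE). Those of Gbp2, Tgtp2 and Iigp1 were -1.25, -0.92 and -1.70. Ifitm1 and Ifitm2 again lay above all members, and 13 of the 15 were below Ifitm3, as were 1538 of the 12653 tested genes. The type I median lay furthest below the WT mean in mutant mouse 2: in log2 units it was -0.62, -2.01 and -0.50 for mutant mice 1, 2 and 3, and 0.09, -0.32 and 0.17 for WT mice 1, 2 and 3. Ifitm3 was at -0.66, -0.28 and -0.55 in the same mutant mice, so the mouse with the lowest list median had the smallest shift of Ifitm3 in CPM, and the largest against genes of like length. Without mutant mouse 2 the type I median was -0.65 and the GTPase median -0.52. Markers of B cells and macrophages had lower sums in mutant mice too, but unevenly between the mice, as given at the end. The part of these cells was not tested.

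**Figure D4:**
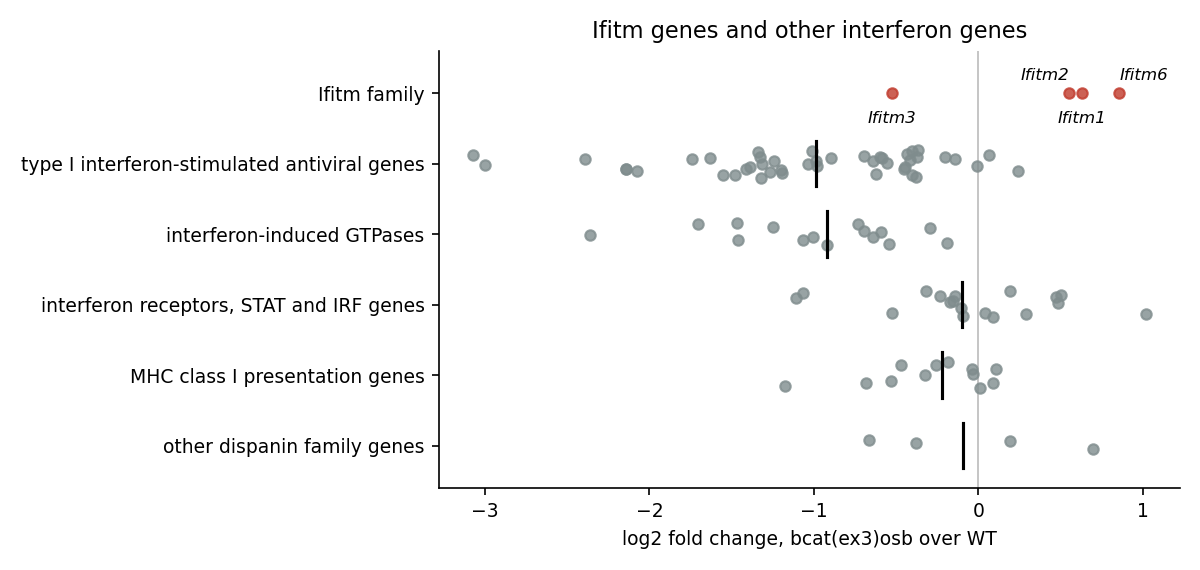
Log2 fold change, bcat(ex3)osb over WT, of each tested gene in the Ifitm family (red) and in 5 other lists (grey), with the list median as a black bar for the other lists. Vertical scatter within a list carries no value. Ifitm1, Ifitm2 and Ifitm6 lie right of all type I interferon-stimulated and GTPase genes, and Ifitm3 at -0.52 lies among them.

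As a list, the genes that receive and relay the interferon signal did not share this direction, although some of them did. Of 18 tested receptor, STAT and IRF genes 8 lay above and 10 below 0, at a median log2 fold change of -0.10. Without overlap 2 lay above WT (6.89% of all tested genes did) and 3 below (7.67%). Ifngr1, a chain of the interferon-γ receptor, was at 232, 315 and 256 CPM in mutant and 196, 203 and 179 CPM in WT mice, with a log2 fold change of 0.47 ± 0.19 (SE). All mutant values of Ifngr1 lay above the WT ones. Socs3, a feedback inhibitor of cytokine receptors, and Irf5 had log2 fold changes of 1.02 and 0.49. The edgeR adjusted p was at least 0.654 in these 3 genes. Irf7 and Irf9 lay the other way, with log2 fold changes of -1.07 and -0.52 and all mutant values below all WT values. Of 12 MHC class I presentation genes 9 lay below 0 and 3 above, at a median log2 fold change of -0.22. Without overlap 3 of them lay below WT and 0 above. H2-K1, a class I heavy chain, was at 1206, 916 and 1346 CPM in mutant and 1813, 2029 and 1717 CPM in WT mice, without overlap (log2 fold change -0.68 ± 0.20, edgeR adjusted p 0.529). B2m, Nlrc5 and H2-T23 had log2 fold changes of -0.47, -1.18 and -0.53.

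Genes whose proteins act on IFITM proteins showed smaller differences. Of 13 tested partners and modifiers 7 lay above and 6 below 0 in log2 fold change, between -0.46 and 0.36, with a median of 0.05. At an unadjusted p under 0.05 by edgeR there were 0 (3.43% of all tested genes were higher and 3.13% lower). Without overlap 1 lay above WT (6.89% of all tested genes did) and 2 below (7.67%). Cd81, a tetraspanin found with human IFITM1 at the cell surface, was at 270, 361 and 353 CPM in mutant and 414, 477 and 400 CPM in WT mice, all mutant values below all WT values. Zdhhc3, an enzyme of the family that attaches palmitate to membrane proteins, was at 162, 216 and 166 CPM in mutant and 142, 146 and 137 CPM in WT mice, all above. Their log2 fold changes were -0.39 ± 0.19 and 0.36 ± 0.19 (SE). Nedd4, a ubiquitin ligase that marks IFITM3 for degradation, and Vapa, a membrane contact protein that binds human IFITM3, had -0.46 and 0.23. Of 9 tested genes beside the Ifitm genes on chromosome 7, 6 lay above and 3 below 0, at a median log2 fold change of 0.07. Athl1, next to the cluster, was at 36.9, 28.4 and 44.4 CPM in mutant and 56.1, 48.6 and 44.4 CPM in WT mice (log2 fold change -0.44 ± 0.23). Pkp3, Mob2 and Lsp1 had 0.50, 0.26 and 0.11.

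The markers of the sort were present, and markers of several other cell types differed in level between the genotypes. The sorted receptor gene Kit was at 345 to 725 CPM in mutant and 323 to 1002 CPM in WT libraries, and Flt3, a receptor gene of multipotent progenitors, at 847 to 1090 CPM in mutant and 746 to 1231 CPM in WT libraries. Ly6a, the gene for Sca-1 and an interferon-induced gene, was at 81.5, 65.9 and 75.7 CPM in mutant and 148, 162 and 156 CPM in WT mice. Of 12 stem cell genes 11 lay below 0 in log2 fold change, at a list median of -0.50 and summed levels of 702 to 1028 CPM in mutant and 906 to 1502 CPM in WT mice. B cell markers summed to 80.4 to 611 CPM in mutant and 635 to 1096 CPM in WT mice, macrophage markers to 21.0 to 84.8 CPM in mutant and 92.2 to 143 CPM in WT libraries, and the macrophage gene Cd5l had 0 counts in all mutant libraries. By mouse, in log2 units against the WT mean, the B cell median was -0.46, -5.79 and -5.11 for mutants and -0.54, 0.09 and 0.34 for WT. That of macrophage markers was -2.8, -2.8 and -0.46 for mutants and 0.20, -0.01 and -0.37 for WT. Mutant mouse 1 thus lay within the WT range for B cell markers, and mutant mouse 3 close to it for macrophage markers. Mature lineage antigens summed to 186 to 428 CPM in mutant and 361 to 531 CPM in WT libraries. Much of that sum was Ptprc, which is also in the list of sort genes. Ptprc alone was at 266, 164 and 252 CPM for mutant mice 1, 2 and 3, against 322, 224 and 296 CPM for WT mice 1, 2 and 3. Osteoblast markers, mostly Runx2, summed to 91.0 to 149 CPM in mutant and 94.5 to 116 CPM in WT libraries. T and NK cell markers summed to 222 to 343 CPM in mutant and 151 to 317 CPM in WT mice, nearly all from Nkg7, and endothelial markers to 96.1 to 190 CPM in mutant and 135 to 223 CPM in WT mice. The part of these cell types in the values of the Ifitm and other interferon genes was not tested.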

How the data were processed

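RNA from LSK cells was sequenced from total RNA libraries (stranded kit), per the labels' protocols. The tools named are bcl2fastq 2.17, STAR 2.5.2b and featureCounts 1.5.0-p3, and the build mm10, per the submitters' processing notes. How featureCounts handled strand and multi-mapping reads is not stated there. Values deposited by the authors are raw whole-number counts per gene, and FPKM computed from those counts, the deposited gene length and the library total. Total counts were 15431235 to 19956774 per library.

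Genes were kept with filterByExpr (minimum count 10, minimum total 15) and tested with edgeR 4.0.16 in R 4.3.3: TMM scaling, genotype as the only term, quasi-likelihood F test, two-sided, Benjamini-Hochberg adjustment over 12653 genes, threshold 0.05. SE came from the F statistic. The script was tested on simulated data. Alternatives were RLE and upper-quartile scaling, DESeq2 1.42.0, limma-voom (limma 3.58.1), other filters, limma on log2 FPKM with a pseudocount of 1 or 0.1, a block for mouse number, removal of each library's trend with gene length, and leaving out each mouse. A term for sex, the female mice alone and omission of both mice 2 were added after the values were seen. FPKM ratios were compared by exact permutation. Log2 CPM used a prior count of 1.

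Named genes were all members, up to 4 tested genes with the smallest unadjusted p per pathway or position list, up to 2 per cell type list, and the 5 genes most correlated with Ifitm1 and Ifitm3. Of these, 1 gene is not reported here. Flt3, Bglap, Sp7, Ibsp, Col1a1, Ifitm7, Irf7 and Irf9 were added after their values were seen. Members and lists were chosen with earlier results of these data known. Promoter windows are from RefSeq on GRCm38.p6, in which all 5 members matched by symbol, and transcript sequences are from GENCODE M21.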

Additional observations from a re-analysis of the deposited data

How the results depend on the processing

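Ifitm1, Ifitm2, Ifitm3 and Ifitm6 kept the direction of their log2 fold change in all 19 alternatives, with adjusted p between 0.206 and 1.00. Their sizes ranged from 0.04 to 0.86 for Ifitm1, 0.09 to 0.88 for Ifitm2, -0.71 to -0.28 for Ifitm3 and 0.41 to 1.05 for Ifitm6. The Ifitm1 to Ifitm3 difference in log2 FPKM ratio was 0.82 to 1.28 when 1 mouse was left out and 0.64 in the female mice, and that of Ifitm2 to Ifitm3 was 0.75 to 1.15 and 0.73. Deviations of same-numbered mice from their group means had positive correlations of 0.110, 0.344 and 0.0567, the last under the threshold of 0.1 set for pairing. Whether the numbers pair the mice is thus not settled, and the main test did not pair them. With a block for mouse number the SE was smaller, at 0.17, 0.14 and 0.14 for Ifitm1, Ifitm2 and Ifitm3. The edgeR adjusted p was then 0.229, 0.206 and 0.212. With the replicate block 5 genes were called higher and 0 lower, none an Ifitm gene, and the ratio differences were 1.07 and 1.01 (exact sign-flip p = 0.25, the smallest possible). Over all genes DESeq2 called 101 higher and 68 lower, and removal of the length trend gave 1 higher. Leaving out 1 mouse gave 0 to 4 higher and 0 to 13 lower, with 1 higher and 13 lower without mutant mouse 1, and 4 higher and 2 lower without mutant mouse 3. The type I interferon median was -1.19 to -0.65 over the mice left out, -0.55 with a term for sex and -0.57 among female mice only, and the GTPase median -1.22 to -0.52. The median of receptor, STAT and IRF genes changed sign, at -0.15 to 0.12 over the mice left out (positive without mutant mouse 2 or WT mouse 1) and 0.0065 with the length trend removed. The MHC class I median was -0.31 to -0.18 over the mice left out, -0.29 on log2(FPKM + 1) and on log2(FPKM + 0.1), -0.31 with the length trend removed, -0.27 with a term for sex, -0.29 among female mice only and -0.15 without mouse 2 of each genotype. The causes were not tested. Depth limits Ifitm10 and, in part, Ifitm6, not the other 3 members.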
